A study of Mus musculus with 2 samples.

Results

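Broad accessible regions at the ends of protein-coding genes were examined in the wild-type mouse striatum at E14.5. They were chosen by the width and position of the deposited peaks: a peak had to be at least 4.48 kb wide and to overlap, by at least 1 bp, a window reaching 1 kb to either side of either end of a protein-coding RefSeq gene span (mm10). Of 87174 peaks in the list, 615 met both conditions. These 615 peaks are 4.06% of the 15164 peaks at protein-coding gene ends and 70.5% of the 872 peaks of that width, which make up 1% of the list. They met the ends of 745 of 21774 protein-coding genes (3.42%), whereas 67.3% of genes had a gene-end peak of any width.

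The study profiled open chromatin by single-nucleus ATAC-seq, in which a transposase cuts and tags accessible DNA and the DNA of every nucleus is barcoded separately. The 2 libraries form 1 group of wild-type striatum of C57BL/6J and CD1 background, and no label ties a library to a particular embryo. Their deposited result is 1 common list of positions with no count, score or sample, so read depth is unknown and no value below has a replicate error. Positions pooled over nuclei cannot tell a region open in many cell types from one open in few. Intervals printed below are exact 95% binomial intervals (Clopper-Pearson), which cover the counting of peaks or genes only.

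Most gene starts lie in a short stretch of open chromatin where the transcription machinery assembles. At a smaller number of genes, many of them encoding regulators of development, open chromatin and its histone marks are known to run over many kilobases and to take in enhancers close to the gene or the gene body itself. In the ganglionic eminences, which give rise to striatal neurons, homeodomain factors of the Dlx, Gsx and Meis families direct progenitors towards a GABAergic fate, and Sox and Notch pathway genes maintain the progenitors.

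The sequences below are 300 bases around the annotated start of genes whose start lay inside a broad peak, shown because the peaks run far beyond them: Dlx1, Dlx2, Meis2 and Six3, which relate to the title of the series or to striatal identity, and the next 4 genes under the broadest peaks for which a promoter was listed. They are RefSeq promoters of GRCm38.p6, from 250 bases before the start, and capitals mark CpG dinucleotides.
Dlx1: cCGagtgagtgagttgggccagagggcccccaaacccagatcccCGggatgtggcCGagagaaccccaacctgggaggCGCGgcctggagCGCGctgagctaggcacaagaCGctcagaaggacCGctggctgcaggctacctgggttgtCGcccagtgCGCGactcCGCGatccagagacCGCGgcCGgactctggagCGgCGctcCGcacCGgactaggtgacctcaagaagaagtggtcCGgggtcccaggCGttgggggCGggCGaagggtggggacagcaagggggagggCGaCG
Dlx2: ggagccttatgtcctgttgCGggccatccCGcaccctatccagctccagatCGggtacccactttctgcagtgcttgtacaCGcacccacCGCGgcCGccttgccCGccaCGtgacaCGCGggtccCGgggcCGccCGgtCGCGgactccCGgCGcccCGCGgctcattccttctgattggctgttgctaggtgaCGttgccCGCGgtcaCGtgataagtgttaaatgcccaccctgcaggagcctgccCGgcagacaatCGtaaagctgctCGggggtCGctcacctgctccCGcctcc
Meis2: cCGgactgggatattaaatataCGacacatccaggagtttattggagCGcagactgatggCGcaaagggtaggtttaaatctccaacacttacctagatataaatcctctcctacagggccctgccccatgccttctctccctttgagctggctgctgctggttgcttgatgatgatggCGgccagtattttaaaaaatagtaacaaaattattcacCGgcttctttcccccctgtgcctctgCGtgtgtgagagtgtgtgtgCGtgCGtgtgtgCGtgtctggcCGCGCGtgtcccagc
Six3: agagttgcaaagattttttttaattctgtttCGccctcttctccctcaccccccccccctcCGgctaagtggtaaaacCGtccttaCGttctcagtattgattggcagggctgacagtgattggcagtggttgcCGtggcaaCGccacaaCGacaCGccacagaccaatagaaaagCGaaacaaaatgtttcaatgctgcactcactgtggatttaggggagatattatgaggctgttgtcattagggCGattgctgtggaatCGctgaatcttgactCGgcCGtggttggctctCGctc
Cwc22: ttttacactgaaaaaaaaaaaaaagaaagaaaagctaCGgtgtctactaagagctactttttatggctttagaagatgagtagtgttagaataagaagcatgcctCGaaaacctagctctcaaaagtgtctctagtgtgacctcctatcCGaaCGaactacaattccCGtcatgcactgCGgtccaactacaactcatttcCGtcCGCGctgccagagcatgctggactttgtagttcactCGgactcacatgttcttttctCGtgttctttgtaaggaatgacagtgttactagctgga
Sox1: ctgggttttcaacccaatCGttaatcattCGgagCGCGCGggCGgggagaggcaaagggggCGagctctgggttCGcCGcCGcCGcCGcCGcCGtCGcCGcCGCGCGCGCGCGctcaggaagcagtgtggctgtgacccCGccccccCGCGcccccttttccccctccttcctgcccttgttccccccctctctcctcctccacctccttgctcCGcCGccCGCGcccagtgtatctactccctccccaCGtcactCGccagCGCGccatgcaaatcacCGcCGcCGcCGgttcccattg
Pax6: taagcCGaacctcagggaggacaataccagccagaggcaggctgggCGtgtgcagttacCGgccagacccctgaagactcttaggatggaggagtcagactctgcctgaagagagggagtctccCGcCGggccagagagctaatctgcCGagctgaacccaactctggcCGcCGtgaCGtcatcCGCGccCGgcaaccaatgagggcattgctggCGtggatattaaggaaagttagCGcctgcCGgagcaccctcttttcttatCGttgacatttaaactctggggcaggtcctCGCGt
Bahcc1: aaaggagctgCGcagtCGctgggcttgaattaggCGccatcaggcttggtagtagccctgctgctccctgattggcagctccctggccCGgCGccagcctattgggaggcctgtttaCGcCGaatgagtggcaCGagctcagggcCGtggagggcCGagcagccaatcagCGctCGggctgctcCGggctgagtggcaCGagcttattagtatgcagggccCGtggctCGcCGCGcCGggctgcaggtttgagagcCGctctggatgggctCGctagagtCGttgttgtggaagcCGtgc

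CpG content differed widely between these starts, although all lay under peaks of at least 12055 bp. The Sox1 promoter (chr8:12395269-12395568, plus strand) held 37 CpG, more than 93.1% of the 17492 protein-coding promoters listed, 1 per gene. Promoters of Dlx2 (chr2:71546705-71547004, minus strand) and Dlx1 (chr2:71529195-71529494, plus strand) held 29 and 27 CpG. By contrast, those of Six3 (chr17:85620584-85620883, plus strand), Meis2 (chr2:116064570-116064869, minus strand) and Cwc22 (chr2:77946307-77946606, minus strand) held 14, 13 and 11 CpG, close to the median of 13 over all listed promoters (quartiles 4 and 24). Pax6 (chr2:105668646-105668945, plus strand) had 18 and Bahcc1 (chr11:120232697-120232996, plus strand) 23. Of 5 short motifs searched on both strands, GGGCGG, the GC box, was found at Dlx1, Dlx2 and Sox1 and in 46.3% of all listed promoters. TGACAG, which has the letters of a MEIS site, was found at Six3 and Cwc22 and in 18.7% of all, and TATAAA at Meis2 and in 13.3%. Neither TAATTA, a homeodomain core (4.69% of all), nor CAGCTG, an E-box (15.1%), was found in any of the 8. A match describes letters in the window and not binding.

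The broad peaks extended unequally to the sides of these listed starts. For Dlx1, Meis2 and Six3 the listed start lay inside the RefSeq gene span, so part of the upstream stretch given here is within the gene. At Meis2 the peak of 21116 bp reached 12011 bp upstream of the start and 9104 bp downstream. Six3 had 8673 bp upstream and 3381 bp downstream of its listed start, at 85620834. The Six3 span begins at 85613608, and 88.0% of this peak lay inside protein-coding spans. Sox1 had 12922 bp upstream and 8896 bp downstream. At Pax6 the larger part lay downstream of its first start, 14511 bp against 2543 bp upstream. The single peak over Dlx1 and Dlx2 placed 6272 bp upstream of the listed start of Dlx1 and 1835 bp upstream of that of Dlx2. It also held the stretch between these genes, which RefSeq places on opposite strands facing each other.

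Widths of the 615 peaks ranged from 4.48 kb to 64767 bp, with a median of 5606 bp and quartiles of 4914.5 and 7018 bp. The 14549 narrower gene-end peaks had a median of 1534 bp, and the 257 peaks as wide but away from protein-coding gene ends one of 5278 bp. Since width chose the members, these widths are a description. The members hold 5.20% of all bases under peaks. Just inside the threshold were peaks at Wnt5a, a Wnt ligand gene (4.48 kb), Pim1, a kinase gene (4484 bp), and Rhbg, an ammonium transporter gene (4487 bp). Just outside were peaks at Eif4g1 and Fam131a (4479 bp), Ppargc1b (4477 bp) and an end of Pou3f2 (4476 bp).

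Of the 15 broadest members, 8 met a gene on a transcription factor list. The broadest, of 64767 bp, covered most of Cwc22, which encodes a splicing factor and lies in a segment known to vary in copy number between mouse strains (copy number was not examined here). A second member of 13840 bp met its other end, 643 bp away. The next were the 25417 bp peak over Dlx1 and Dlx2, which also met an end of Metap1d, and the 25330 bp peak over Dlx5 and Dlx6. Dlx genes encode homeodomain factors of ganglionic eminence progenitors and GABAergic neurons. Mn1, a transcriptional coregulator gene, had 21855 bp, Sox1, a factor of neural progenitors, 21819 bp, and Meis2, a TALE homeodomain factor gene of striatal neurons, 21116 bp. Pax6, a paired-box factor gene of progenitors, had 17055 bp, Bahcc1, which encodes a chromatin reader, 16994 bp, Pou3f3, a POU factor gene of neural cells, 16887 bp, and Sox2, another progenitor factor gene, 16381 bp. 1600014C10Rik had 16121 bp and the Polycomb gene Cbx8 14926 bp.

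**Figure D1:**
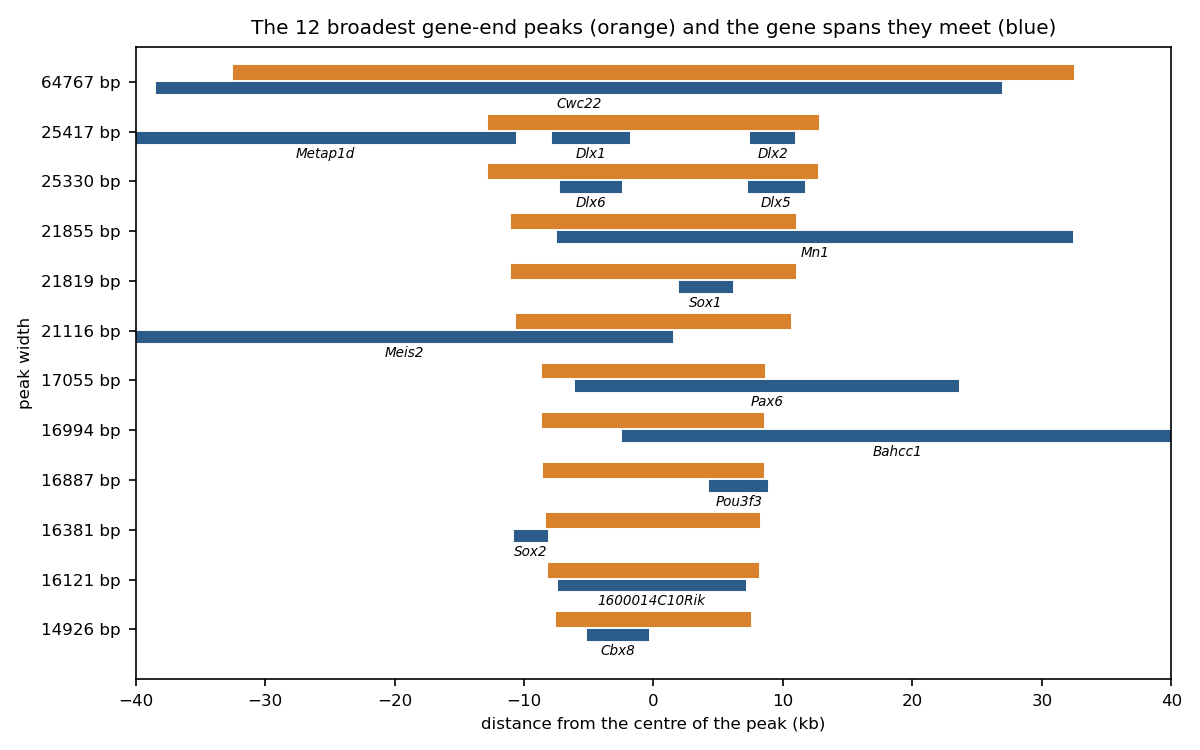
Each row is 1 of the 12 broadest gene-end peaks (orange, width at left) with the spans of the protein-coding genes whose ends it met (blue), drawn to scale against distance from the peak centre in kb; spans are cut at 40 kb. Peaks over Dlx1 with Dlx2 and over Dlx5 with Dlx6 contain both gene spans of each pair, the Sox2 peak lies beside its gene, and those at Meis2 and Bahcc1 cover 1 end of a long gene.

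Several families contributed many of these genes. Together the 10 lists of transcription factor families hold 593 genes, of which 127 had a broad gene-end peak (21.4%, interval 18.2 to 24.9%), beside 2.92% of the other 21181 protein-coding genes and 3.42% of all. The list of numbered Zfp zinc finger genes, of which 11 of 394 had a broad peak (2.79%), is not among the 10. Transcription factor genes here and below means the genes of the 10 lists only. The lists were drawn up with earlier results of these data known, so these counts are descriptive and none was tested. Some of the difference is shared with gene-end peaks in general, which 91.4% of transcription factor genes had. Among genes with a gene-end peak of any width, 23.4% of transcription factor genes had a broad one, beside 4.38% of other genes and 5.09% of all. Viewed the other way, transcription factor genes were 17.0% of the 745 genes with a broad peak and 2.72% of all protein-coding genes. Of the 30 broadest members, 16 met a transcription factor gene (53.3%), as did 18 of the 50 broadest, 20.8% of all members and 4.44% of narrower gene-end peaks.

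The share did not climb evenly with width. Transcription factor genes were 0.716% of genes with no gene-end peak. By the widest gene-end peak they were 2.87% of genes under 500 bp, 2.00% from 500 bp to 1 kb, 1.72% from 1 to 2 kb, 5.09% from 2 to 4.48 kb and 17.0% at that width or more. The lowest share among genes with a peak thus lay from 1 to 2 kb, the class with most genes (7051).

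**Figure D2:**
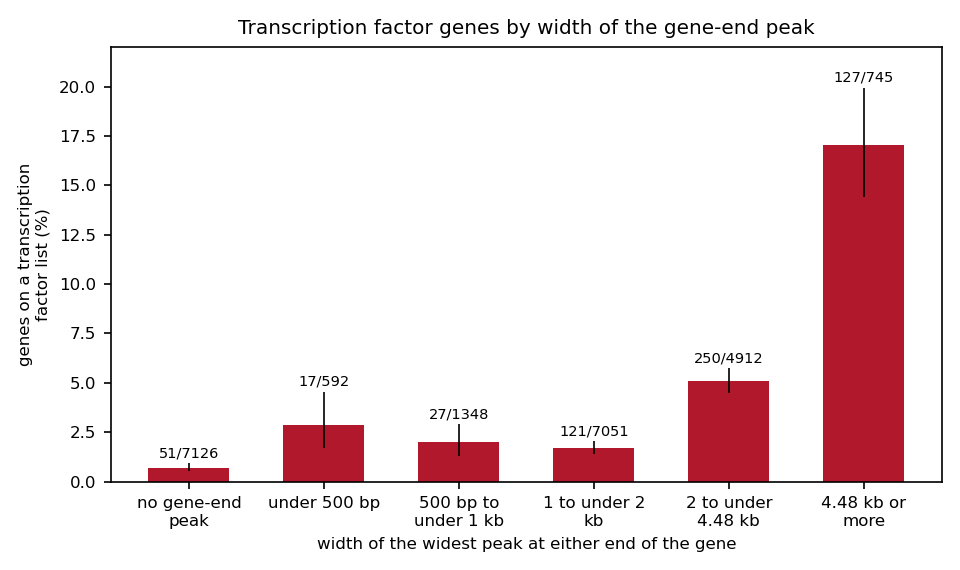
Bars give the share of protein-coding genes on a transcription factor list (%), by width of the widest peak at either gene end (bp or kb); lines are exact 95% binomial intervals over genes and labels give counts. The share is 17.0% at 4.48 kb or more and at most 5.09% in every narrower class.

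Among the families, Sox genes had the highest share, with 9 of 20 (45.0%). After Sox1 and Sox2 came Sox21, a SoxB factor gene (8533 bp), and Sox4, a factor gene of new neurons (8479 bp). Sox17, Sox13, Sox18 and Sox5 had none, their widest gene-end peaks measuring 1711 to 2494 bp. Homeobox genes outside the Hox, Pax and POU families had a broad peak at 40 of 151 (26.5%), led by the 4 Dlx genes. Lhx4 (614 bp) and Lhx9 (3165 bp), which encode factors of other neuron classes, had narrower ones, and Gbx2, with 4453 bp, fell just short. Developmental zinc finger genes reached 28 of 96 (29.2%). Gata2, a factor gene of blood and of some neurons, had 12679 bp, Prdm16, a progenitor regulator, 11242 bp, Bcl11a, a factor of neurons and blood cells, 9367 bp, and Sp9, which acts in striatal neuron development, 9310 bp.

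Other families had smaller shares. bHLH genes had 16 of 104 (15.4%), among them Olig2, a progenitor factor (11519 bp), and the Notch effector or Hes family genes Hes5 (11125 bp), Hes7 (9221 bp) and Hes1 (8928 bp). Nuclear receptor genes had 8 of 45 (17.8%), with Rxrb (9299 bp), Nr2e1, also called Tlx and active in neural stem cells (8717 bp), and Nr2f1 (7206 bp). POU genes had 3 of 15, and all 3 were neural class III members: Pou3f3, Pou3f2 (12486 bp) and Pou3f4 (5312 bp). Pax genes had 2 of 9, Pax6 and Pax7 (4731 bp). Forkhead genes had 6 of 44 (13.6%), among them Foxj1, the factor of ciliated cells (8304 bp), and Foxb2 (7115 bp). Hox genes, which pattern the body axis and are mainly used behind the forebrain, had 5 of 39 (12.8%) through 3 peaks of 6845 bp or less, Hoxc5 with Hoxc6 and Hoxa7 with Hoxa9 sharing 1 each. The mixed list of NFI, EBF, T-box, ETS and similar factors had 10 of 70 (14.3%), led by Tbx2 (10548 bp) and Mef2d (8630 bp). Numbered Zfp genes, a large zinc finger family, had 11 of 394 (2.79%), near the share of all genes, although 83.2% of them had a gene-end peak. Zfp516 (10100 bp), Zfp532 (7990 bp) and Zfp503, the striatal factor gene (7312 bp), were among the 11.

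By cell type, the ganglionic eminence and radial glia lists had the highest shares at this width. The order of lists changed with the width minimum and with placing peaks by midpoint. Ganglionic eminence regulators had 9 of 15 (60.0%, interval 32.3 to 83.7%) under 7 peaks, since Dlx1 and Dlx2, and Dlx5 and Dlx6, share theirs. Among those without one, Gsx1 had 4436 bp, Gsx2 3274 bp and Olig1 2332 bp. Radial glia and progenitor genes had 12 of 20 (60.0%, interval 36.1 to 80.9%), among them Sox1, Pax6, Sox2 and Hes5. Slc1a3, a glutamate transporter gene (1501 bp), Notch2 (1608 bp) and Fabp7 (3164 bp) had narrower peaks and Nfia none at its ends. Striatal projection neuron factors had 8 of 19 (42.1%, interval 20.3 to 66.5%). Meis2 and Six3 (12055 bp) were followed by Bcl11a and Bcl11b, also called Ctip2 (8733 bp). With a minimum of 6000 bp the shares were 46.7% of ganglionic eminence regulators, 25% of radial glia genes and 31.6% of striatal projection neuron factors, so that the radial glia list fell below the striatal one. With 3000 bp they were 93.3%, 70% and 57.9% in the same order. With the peak midpoint inside the window they were 20%, 20% and 5.26%, beside 6.25% of genes of the cortical excitatory lineage. Of all 21774 protein-coding genes, 322 had a broad peak with 6000 bp, 2234 with 3000 bp and 270 by midpoint. Foxp1 (3966 bp), Meis1 (3459 bp), Isl1 (2647 bp) and Ebf1 (2350 bp) had no gene-end peak of the required width.

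Markers of mature striatal projection neurons had 2 of 18 (11.1%): Chrm4, a muscarinic receptor gene (6387 bp), and Rasgrp2 (6275 bp). Their peaks also met ends of other genes, Dgkz and Mdk at Chrm4 and Nrxn2 at Rasgrp2. A second broad peak at Rasgrp2, of 4661 bp, also met Pygm. The 6275 bp peak lay outside the Rasgrp2 span, of which the 4661 bp peak covered 21.4%. Of the Chrm4 span 26.7% was covered. The dopamine receptor genes Drd1 and Drd2 had gene-end peaks of 1315 and 1800 bp, the adenosine receptor gene Adora2a one of 1949 bp and the enkephalin gene Penk one of 1287 bp. In contrast, GABA synthesis and transport genes had 3 of 7: Slc32a1, the vesicular GABA transporter gene (12004 bp), Gad1 (11978 bp) and Gad2 (10074 bp), which encode the GABA-synthesising enzymes. Membrane transporter genes of the same list, Slc6a11 (942 bp) and Slc6a13 (618 bp), and Abat, which encodes the degrading enzyme (2462 bp), had none.

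Lists of other lineages had lower shares at this width than the ganglionic eminence, radial glia and striatal factor lists, with intervals that overlap in part. Genes of interneurons of the medial ganglionic eminence had 4 of 15 (26.7%, interval 7.79 to 55.1%). Zeb2 (5032 bp), Nxph1 (4953 bp) and Nkx2-1 (4814 bp) were among them, and Lhx6 fell short with 4433 bp. The caudal ganglionic eminence list had 2 of 8 (25%, interval 3.19 to 65.1%), Prox1 (7512 bp) and Nr2f1. Genes of the cortical excitatory lineage had 2 of 16 (12.5%, interval 1.55 to 38.3%), Emx2 (8704 bp) and Fezf2 (5139 bp). For each of these genes 2 broad peaks met the ends. With a minimum of 3000 bp the share of this list was 56.25%, beside 57.9% of striatal projection neuron factors and 2234 of all 21774 genes. Emx1 (3380 bp), Eomes (4007 bp), Tbr1 (3573 bp) and Neurog1 (3320 bp) had narrower ones. In the oligodendrocyte list Olig2 alone of 12 had one, and in the skeletal muscle list Pax7 alone of 14. No microglia (of 12), endothelial or mural (of 14), erythroid (of 10) or liver gene (of 14) had one. With lists of these sizes the intervals still reach 26.5%, 23.2%, 30.8% and 23.2%. None of 1455 olfactory and vomeronasal receptor genes had one, which allows a share of up to 0.253%, and 12 of them had a gene-end peak of any width. The ganglionic eminence, radial glia and striatal factor lists share genes with the transcription factor lists, among them Dlx1, Dlx2, Sox1, Pax6 and Bcl11a. Cell type and gene class therefore cannot be told apart in these shares, and neither was tested.

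**Figure D3:**
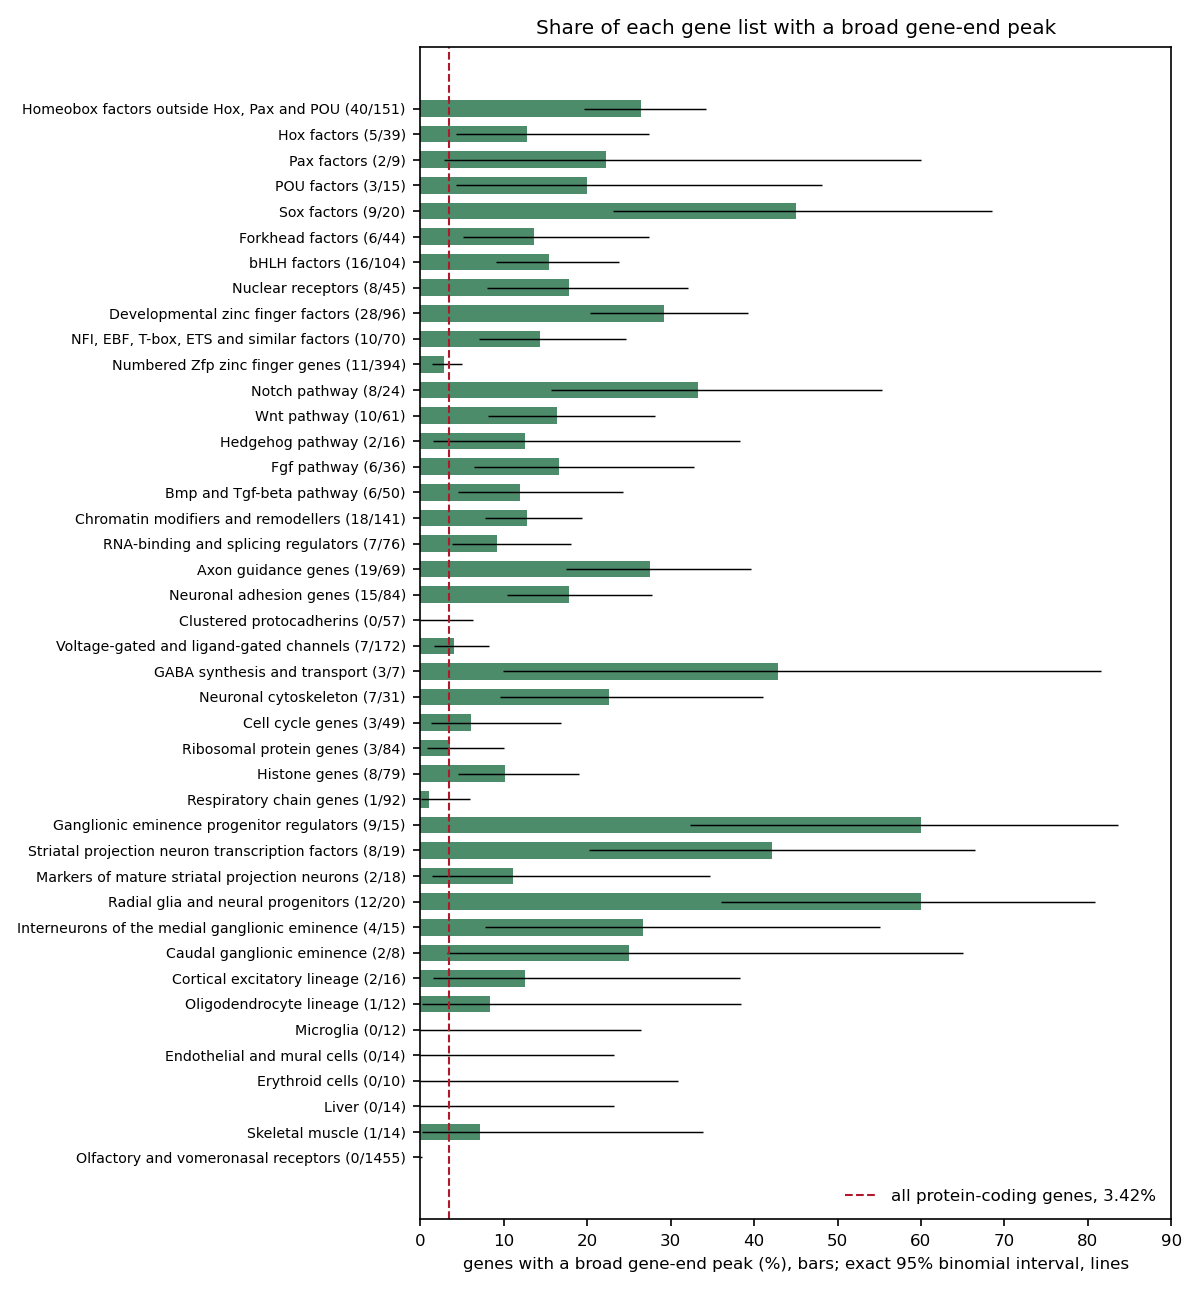
Bars give the share of each of 42 gene lists with a broad gene-end peak (%), lines the exact 95% binomial interval over genes, and brackets the counts; the dashed line marks the 3.42% of all protein-coding genes. Ganglionic eminence and radial glia lists reach 60.0% and the microglia, endothelial, erythroid, liver, clustered protocadherin and receptor lists 0.

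Signalling and surface genes were also represented. Notch pathway genes had 8 of 24 (33.3%), with the effectors Hes5 and Hes1, the ligand gene Dll1 (11085 bp) and Lfng, which encodes a glycosyltransferase that modifies Notch (7852 bp). Notch2, Notch3 (3934 bp), Notch4 (3113 bp) and Dll3 (2015 bp) had none. Axon guidance genes had 19 of 69 (27.5%), led by the plexin gene Plxnb2 (9985 bp), the ephrin genes Efnb2 (8872 bp) and Efnb1 (8113 bp) and the netrin gene Ntn3 (8060 bp). Wnt pathway genes had 10 of 61 (16.4%), with the receptor genes Fzd8 (7015 bp) and Fzd5 (6188 bp) and the ligand gene Wnt10a (6845 bp). Fgf pathway genes had 6 of 36 (16.7%), with the receptor gene Fgfr2 (9421 bp) and the ligand genes Fgf9 (6865 bp) and Fgf11 (6332 bp). Bmp and Tgf-beta genes had 6 of 50, with the inhibitors Smad7 (8245 bp) and Nog (6632 bp). Of Hedgehog pathway genes Gli2 (8661 bp) and Gli1 (4499 bp), both transcriptional effectors, were 2 of 16. Neither the ligand genes Shh (893 bp), Dhh (1610 bp) and Ihh (4245 bp) nor the receptor gene Ptch1 (1958 bp) had one.

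Neuronal adhesion genes had 15 of 84 (17.9%), with Cntnap1 (9161 bp), Flrt2 (8025 bp), the latrophilin gene Adgrl1 (7954 bp) and the protocadherin gene Pcdh8 (7436 bp). None of 57 clustered protocadherin genes had one, although 43.9% had some gene-end peak. Neuronal cytoskeleton genes had 7 of 31 (22.6%), with the tubulin genes Tubb3 (7157 bp) and Tubb2b (6429 bp) and Marcks (6225 bp). Channel genes had 7 of 172 (4.07%), close to all genes, led by the kainate receptor gene Grik3 (10727 bp) and the potassium channel gene Kcnk10 (6580 bp).

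General cell functions gave mixed counts. Chromatin modifiers had 18 of 141 (12.8%): Cbx8, the methyltransferase gene Setd1b (13361 bp) and Ring1, which encodes a Polycomb ubiquitin ligase (9299 bp), were among the broadest. The peak at Setd1b also met Rhof and covered 12.2% of the Setd1b span. RNA-binding and splicing regulators had 7 of 76 (9.21%), with Ptbp1 (7700 bp) and the neuronal genes Rbfox3 (6164 bp), Nova2 (5408 bp) and Elavl3 (5332 bp). Histone genes had 8 of 79 (10.1%) under 4 peaks, and H1f1, H3c1 and H4c1 shared 1 peak of 5149 bp. Cell cycle genes had 3 of 49: the cyclin genes Ccnd2 (8317 bp) and Ccnd1 (6776 bp), and Cdk5 (5889 bp). The peak at Cdk5 also met another gene and covered 4.30% of the Cdk5 span. Ribosomal protein genes had 3 of 84 (3.57%), Rps15 (8049 bp), Rpl36 (4570 bp) and Rpl19 (4552 bp), and respiratory chain genes 1 of 92 (1.09%), Atp5d (10550 bp). Each of these 4 peaks also met another gene: Apc2 at Rps15, Lonp1 at Rpl36, Cacnb1 at Rpl19 and Midn at Atp5d. The peak covered 0% of the span of Rps15, 58.6% of Rpl36, 17.6% of Rpl19 and 9.12% of Atp5d. Gene-end peaks of any width were present at 95.2% and 94.6% of these last lists.

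Immediate early and stress-response genes, which are transcribed within minutes of a stimulus, were listed after the data had been seen, and their count is therefore a description of a choice. Of 41 such genes 23 had a broad peak (56.1%), beside 3.42% of all protein-coding genes. All 41 had a gene-end peak, and 5.09% of all genes with a gene-end peak had a broad one. Btg2 (10580 bp), Gadd45b (9722 bp), Junb (8769 bp) and Dusp8 (8623 bp) were the broadest. Fosb (3789 bp), Egr2 (4304 bp), Egr4 (3568 bp) and Fosl1 (2477 bp) were among those without one. Of the 23 genes, 9 were covered over the whole span.

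Coverage of the gene span was lower in longer genes. Over the 745 genes, members covered a median of 19.2% of the span (quartiles 4.74 and 62.7%). In 88 genes (11.8%) the span was covered whole, in 220 (29.5%) by at least 50%, in 284 (38.1%) by under 10%, and in 31 (4.16%) no base was covered, since the peak lay within 1 kb but outside the span. Sox2 is such a gene: its broad peak began just past the end of the span, and all deposited peaks together covered 64.1% of it. With all deposited peaks counted, the median over the 745 genes was 33.3%. The genes themselves had a median length of 14739 bp, against 23298 bp for genes with narrower gene-end peaks only and 17219 bp for all protein-coding genes.

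By class of gene length, 169 genes under 5 kb had a median cover of 94.96%, and 80 of them were covered whole. The 256 genes of 5 to 20 kb had a median of 30.1%, with 8 covered whole. The 204 genes of 20 to 100 kb had 8.34% and the 116 longer genes 1.71%, with none covered whole in either class. Genes with narrower gene-end peaks only had medians of 34.4%, 8.66%, 2.55% and 0.698% in the same order of classes, and 128 of 1784 under 5 kb were covered whole (7.17%). As width chose the members, their larger cover follows in part from the choice. Cover is divided by the length of the span, so a fall with length is built into the measure. From the shortest to the longest class the median peak width went from 7208.5 to 5474.5 bp in transcription factor genes. In other genes it went from 5719 to 5240.5 bp. How often a gene had a broad peak differed less with length: 3.40% of genes under 5 kb, 3.77% of 5 to 20 kb, 2.69% of 20 to 100 kb and 4.78% of longer genes.

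Within genes of 5 to 20 kb the 37 transcription factor genes had a median cover of 69.7% (quartiles 28.3 and 88.3%) and the 219 other genes one of 28.5% (17.1 and 51.9%). The median length was 7560 bp for these transcription factor genes and 10067 bp for the others, and the median peak width 6845 and 5638 bp. In genes under 5 kb the medians were 90.4% and 95.3%, with 19 of 42 and 61 of 127 covered whole. Transcription factor genes thus had the higher median from 5 to 20 kb and the lower one under 5 kb, and neither difference was tested.

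The longest genes covered whole were 1600014C10Rik (14352 bp), Slc32a1 (8488 bp), Islr2, a membrane protein gene (8023 bp), Ndufa4l2 (7881 bp), Otx1, a forebrain homeobox gene (6888 bp), Dlx1 (5869 bp), the homeobox gene En1 (5505 bp), Hes7 (5149 bp), Gm46294 (4984 bp) and the actin gene Actb (4862 bp). At the other extreme, a broad peak covered 0.238% of Auts2 (1105888 bp), a gene of neuronal development, 0.541% of the phosphatase gene Ptprg (688602 bp), 0.548% of the coactivator gene Ppargc1a (661605 bp), 0.362% of the nuclear receptor gene Esrrg (606376 bp) and 0.644% of Csmd2 (581156 bp). Cwc22, at 65198 bp, was far from the other genes of its length, with 99.0% covered by its 2 members.

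**Figure D4:**
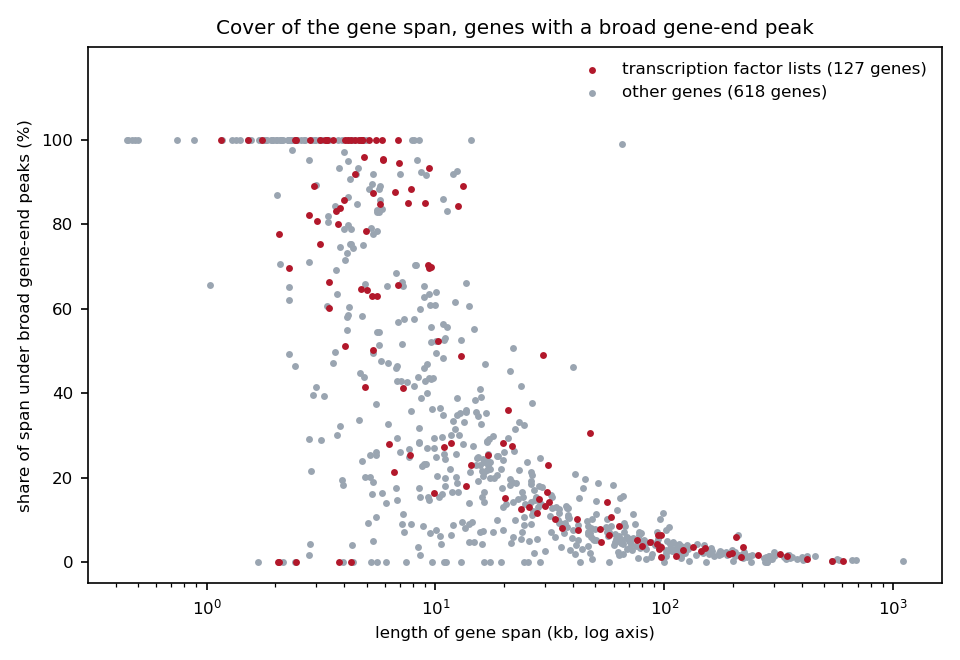
Each point is 1 of the 745 genes with a broad gene-end peak, by length of its span in kb (log axis) and share of the span under such peaks (%); red marks the 127 genes on transcription factor lists and grey the other 618. Cover runs up to 100% in short genes and is below 10% in genes over 100 kb, with Cwc22 as the point near 65 kb and 99.0%.

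Most genes were met at 1 end. Members met 1 end of 584 genes (78.4%) and both ends of 161: in 142 (19.1%) a single peak met both, and in 19 different members did. Meis2 belongs to the 19, with 21116 bp at the start and 9523 bp at the far end, as do Tbx2 (10548 bp at one end), the transcriptional corepressor gene Skor1 (11075 bp) and the histone demethylase gene Kdm6b (8245 bp). Whether members lie at the start or the far end could not be counted over all genes. A start and strand were listed for 566 of 745 genes (76.0%), below the 80% required here, so that check is void. In lists with at least 5 member genes of which at least 80% had an entry, a listed start lay inside a broad peak in 16 of 16 axon guidance genes, 7 of 7 Notch pathway genes, 7 of 7 nuclear receptor genes, 6 of 6 Fgf pathway genes, 7 of 7 histone genes and 5 of 7 RNA-binding genes. Hnrnpu and Rbfox3 were the exceptions. The median CpG count of their promoters ran from 10 in the Fgf list to 29 in the RNA-binding list.

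Neighbouring genes often shared a member. A single gene was met by 490 peaks (79.7%), 2 genes by 102, 3 by 20 and 4 by 3, so that 20.3% (interval 17.2 to 23.7%) met several genes, beside 15.5% of narrower gene-end peaks. Among the narrower peaks that share was 16.6% from 1 to 2 kb and 19.1% from 2 kb upwards. The 3 peaks that met 4 genes were one of 7621 bp on chromosome 11 at Cyb5d1, Kdm6b, Naa38 and Tmem88, one of 9299 bp on chromosome 17 at H2-Ke6, Ring1, Rxrb and Slc39a7, and one of 6256 bp on chromosome 17 at Jmjd8, Rhbdl1, Rhot2 and Stub1. In such cases the peak cannot be given to 1 gene, and Rxrb and Ring1 above are counted through 1 peak. Peaks at Hes5, Hes7, Foxj1, Junb, Plxnb2, Ntn3, Cntnap1, Fgf11 and Tubb3 also met other genes, so the widths above are not theirs alone. A median of 71.6% of a member lay inside protein-coding spans (quartiles 53.6 and 87.7%).

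Non-coding genes lay under many members. Long non-coding RNA genes were overlapped by 180 members (29.3%), beside 13.1% of narrower gene-end peaks. At the broadest ones they included Dlx6os1, Sox1ot, Pax6os1, Sox2ot and Pantr1, all of which neighbour or overlap the transcription factor gene. A microRNA gene was overlapped by 15 members (2.44%) and by 0.619% of narrower gene-end peaks. The wider a peak, the more it overlaps by position alone, so these shares are descriptive. The 9565 bp peak on chromosome 11 at Hic1 and Smg6 held Mir212 and Mir132, 2 microRNAs known from neurons that share a seed. Their mature 3p arms, from RefSeq with bases 2 to 8 in capitals, show that seed.
mmu-miR-132-3p: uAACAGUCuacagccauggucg
mmu-miR-212-3p: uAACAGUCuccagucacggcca

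The members lay among other peaks. Within 50 kb of a member there was a median of 9 other peaks (quartiles 6 and 13, range 0 to 35), beside 5 for narrower gene-end peaks and 12 for peaks as wide away from gene ends. The nearest peak lay a median of 1727 bp away, against 6193 bp for narrower gene-end peaks. No peaks of the list lay closer than 501 bp, and the sources used here do not give whether closer regions were joined before deposit.

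Members were unevenly spread over chromosomes. Of protein-coding genes on chromosome X, 6 of 963 had one (0.623%, interval 0.229 to 1.35%), against 3.59% of autosomal genes. These were Efnb1 (8113 bp), Bcorl1, a corepressor gene (5582 bp), Pou3f4 (5312 bp), the protocadherin gene Pcdh19 (5162 bp), Sox3 (4966 bp) and Mamld1 (4566 bp). Chromosome X holds 4.42% of protein-coding genes, 3.07% of narrower gene-end peaks and 0.976% of members, so narrower peaks were also fewer there than its genes. Among autosomes the share of genes ran from 1.47% on chromosome 16 to 5.74% on chromosome 17. On chromosome Y the single member, of 7328 bp, lay at Gm52481.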

How the data were processed

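Nuclei of embryonic striatum were profiled by droplet single-nucleus ATAC-seq in 2 libraries. The submitters' processing notes name Cell Ranger ATAC 1.2.0, Signac and the build mm10, per the labels. The tool that called the peaks, and any pooling of libraries before it, are not given in the sources used here. The authors' deposited list holds positions alone (chromosome, start and end), and no other unit. Starts were read as counted from 0, which the sources do not state, and are printed as deposited.

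Genes came from a RefSeq table of GRCm38.p6, the assembly mm10 names. Of 49997 entries, 402 on scaffolds or on no nuclear chromosome were left out, and 21774 of the 49595 kept were protein-coding genes. Members were found with Python 3.11.15, numpy 2.4.6, pandas 2.3.3 and scipy 1.17.1. The overlap and coverage code was tested on simulated data. Members and gene lists were chosen with earlier results of these data known, and 1 list was added later. No test was made, because 1 peak list without samples allows none. Genes were named by a fixed rule: the title genes and Six3, those at the 15 broadest members, up to 4 with the broadest peak and up to 4 without one per list, the extremes of length, sharing and threshold, and up to 5 on chromosome X. Others were chosen after their values were seen: Dlx6os1 and the other non-coding genes, Mir132, Mir212, Tbx2, Skor1, Kdm6b, Hnrnpu, Dgkz, Mdk, Nrxn2, Pygm, Apc2, Lonp1, Cacnb1, Midn, Tnrc18, Rhof, Ehbp1, Srcin1, Pank4, Mamld1 and Gm52481. Some genes that this rule names are not reported here.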

Additional observations from a re-analysis of the deposited data

How the results depend on the processing

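No paired analysis was possible because both libraries belong to 1 group and the peak list names no library. Leaving out a library was not possible either. Of 10 alternatives, keeping scaffold genes changed no value, and an overlap of at least 500 bp gave the same values as a window of 500 bp. Without these, 121 values of 19 results were compared, and 81 stayed within 1.5 times for counts or inside the 95% interval for shares and medians. Another width minimum or placing peaks by midpoint accounted for 38 of the 40 that moved. With a minimum of 6000 bp there were 257 peaks at 322 of 21774 protein-coding genes, with a median cover of 29.99%. Of transcription factor genes 12.1% then had a broad peak. With 3000 bp there were 1855 peaks at 2234 of 21774 genes, a median cover of 10.6% and 43.7% of transcription factor genes. With the peak midpoint inside the window there were 245 peaks at 270 of 21774 genes. Of transcription factor genes 7.08% had one, and 10.2% of peaks met several genes. The last share was 24.9% with a window of 2500 bp, and the median cover 33.3% with all deposited peaks counted. Transcription factor genes made up 22.4% of genes with a broad peak at 6000 bp, 11.6% at 3000 bp and 15.6% by midpoint, beside 17.0% as reported. The base of genes with any gene-end peak was added after the data were seen. Another window for gene starts was not run, and the observed-to-expected CpG ratio of promoters was not taken over all members, since too few genes had an entry. In the lists with enough entries the median ratio ran from 0.580 in the Fgf list to 0.902 in the RNA-binding list. Read depth is unknown, so what it limits cannot be stated.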

Other observations

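The lists together hold 3681 of the 21774 protein-coding genes, so most protein-coding genes stand on none. Of the 745 genes with a broad peak, 465 (62.4%) stood on none, a lower share than over all protein-coding genes. Among the 30 broadest members, such genes were Cwc22, Metap1d, Mn1, Bahcc1, 1600014C10Rik, Tnrc18 (13479 bp), Rhof (13361 bp), Ehbp1 (12902 bp), Srcin1 (11962 bp), Actb (11149 bp) and Pank4 (11125 bp). Transfer RNA genes were overlapped by 5 members (0.813%), beside 0.247% of narrower gene-end peaks. The members held 14 of 403 such genes (3.47%) and the more numerous narrower peaks 46 (11.4%).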
